A study of Mus musculus with 23 samples.

Results

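A set of 10 genes of the NF-kB pathway was followed through the first spermatogenic wave of the CD-1 mouse, in vivo and in testicular explants grown in vitro. They were chosen by name, with earlier results of these data known, so that shares of them set against all genes are descriptions. Of the 27466 genes of the deposited count table the 10 are Nfkb1, Nfkb2, Relb, Nfkbia, Tnfaip3, Birc3, Icam1, Vcam1, Ptgs2 and Nos2. These are subunits, feedback inhibitors and targets of the pathway. All animals carried the wild-type genotype. In vivo testes were collected at 4 ages, 6.5 and 10.5 days postpartum (dpp) and later 22.5 and 36.5 dpp, and explants of 6.5 dpp testes were kept for 4, 16 or 30 days in medium with serum replacement and retinol (D4, D16, D30), which match in age the testes of 10.5 dpp, 22.5 dpp and, last, 36.5 dpp. Part of the 6.5 dpp testes, and 1 of the D30 libraries, came from tissue thawed after controlled slow freezing (CSF); all other testes and explants were fresh. Each culture library pooled several explants, from which the dead centre that forms in long culture had been cut away, so that a culture library describes the surviving rim. Replicates are separate samples in the labels; since nothing in the labels ties them to separate animals, p-values measure only the spread between these samples.

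NF-kB factors are dimers of Rel proteins that wait in the cytoplasm, held by IkB inhibitors. Ligands such as TNF, interleukin-1 or bacterial products lead, through adaptors and the IKK kinases, to loss of IkB and entry of the dimers into the nucleus, where they switch on genes of inflammation, adhesion and survival, and also their own brakes. In the non-canonical branch, ligands such as lymphotoxin act through processing of the Nfkb2 product, whose partner is RelB. In the testis, Sertoli, Leydig, peritubular, endothelial and immune cells are all able to respond to these ligands.

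In culture most of these genes stood higher than in testes. The inducible prostaglandin synthase Ptgs2 gave 1 to 4 counts or none in each of the 12 in vivo libraries compared and 70 to 256 counts in each of the 9 culture libraries. At D4, Relb, Icam1 and Nos2 also rose over testes of the age at which explants were cut, under each of 4 ways of scaling the libraries. By D30, 8 of the 10 genes were called higher than in the age-matched testis on a scale set by all genes, where 25.2% of all genes were called higher and 29.8% lower, and 1 of them, Ptgs2, was also called on a scale set by somatic cell genes. The adhesion molecule Vcam1 was not called in any comparison on that first scale.

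The table covers 21 libraries with 28351546 to 69029328 counts each (median 41104442): 12 of testes and 9 of explants. The 6.5 dpp group held 4 libraries (3 of CSF tissue and 1 fresh), the 10.5 and 22.5 dpp groups 3 each and the 36.5 dpp group 2. Of the explants 3 libraries were from D4, 2 from D16 and 4 from D30 (1 of them CSF). A further 2 columns were left out. The library labelled 6.5 dpp fresh replicate 3 held the same count as replicate 2 for every gene, and the library labelled 6.5 dpp fresh replicate 1 resembled cultured tissue, with 53 counts of Ptgs2 and 0.904 CPM (the count divided by the library's total and multiplied by 1000000) against at most 0.0832 CPM in the other 6.5 dpp libraries. The Leydig cell markers (5 genes) of replicate 1 summed to 120 CPM, against 595 to 922 in those other libraries. Since Ptgs2 is itself a member, its range in testes and the D4 calls depend in part on this choice. The calls with replicate 1 put back are given with the comparison of D4 and 6.5 dpp. Another 2 libraries stood apart but stayed in. CSF replicate 3 of 6.5 dpp had the lowest Nfkb1, at 30.3 CPM against 65.2 to 67.2 in the others, and 22.5 dpp replicate 2 had more of all members but Ptgs2 and Nos2 than the other testes of its age. Counts of calls that turn on them are given with and without them.

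All members passed the filter on low counts. A gene is called higher or lower where edgeR's quasi-likelihood test, adjusted over all 19255 genes tested, gave p under 0.05 and the fold change was at least 2. Fold changes are given as log2 values with an SE, on a scale that assumes that most genes are alike in the libraries (TMM factors). The SE is approximate: the size of the log2 fold change divided by the square root of the test's F value.

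The members lie on 8 chromosomes of GRCm38. The subunit genes are Nfkb1 (chromosome 3, 135584655 to 135691969), Nfkb2 (chromosome 19, 46300994 to 46312400) and Relb (chromosome 7, 19606217 to 19629438). The inhibitors are Nfkbia (chromosome 12, 55489409 to 55492647) and Tnfaip3 (chromosome 10, 19000910 to 19015410). Birc3 (7847468 to 7873205) and Icam1 (21015940 to 21028814) are both on chromosome 9, and Vcam1 is on chromosome 3 (116110020 to 116129688). Ptgs2 (chromosome 1, 150100031 to 150108234) and Nos2 (chromosome 11, 78920787 to 78960226) encode enzymes. Genes on the opposite strand cover 11.6% (a long non-coding RNA) and 6.52% (Psd) of the exon bases of Nfkb2, 11.7% of those of Icam1 and 0.688% of those of Vcam1 in GENCODE vM21. The library kit keeps strand, but the strand setting of the counting is not given in the sources used here. How reads in these shared bases were counted is therefore not known.

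Promoter windows of 300 bases, 250 before and 50 after the transcription start, were at hand from RefSeq (GRCm38.p6) for 6 of the 10 members. They were searched on both strands for the kB consensus, 10 bases with 3 guanines, a purine, 2 free bases, 2 pyrimidines and 2 cytosines. The windows of Nfkb2, Nfkbia and Tnfaip3 hold at least 1 match, and those of Birc3, Icam1 and Ptgs2 hold none; of all 27025 genes with a window 9.55% hold one. Other windows of Nfkb2 also hold matches, and a second window of Tnfaip3 holds none. No window was at hand for Nfkb1, Relb, Vcam1 and Nos2. Shown here are the windows of the 3 genes with a match, first start site each, and that of Ptgs2, the member with the widest gap between culture and testis. Capitals mark the matches, and 2 matches of Nfkb2 overlap. A match is only a run of letters, and its absence says nothing about sites elsewhere in a gene.
Nfkb2, chr19:46304487-46304786, plus strand: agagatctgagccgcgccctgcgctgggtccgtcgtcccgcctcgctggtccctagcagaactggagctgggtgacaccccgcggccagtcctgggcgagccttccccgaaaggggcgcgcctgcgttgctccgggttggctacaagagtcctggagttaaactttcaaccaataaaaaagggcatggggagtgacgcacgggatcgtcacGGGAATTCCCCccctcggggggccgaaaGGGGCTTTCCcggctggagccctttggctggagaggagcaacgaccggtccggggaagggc
Nfkbia, chr12:55492598-55492897, minus strand: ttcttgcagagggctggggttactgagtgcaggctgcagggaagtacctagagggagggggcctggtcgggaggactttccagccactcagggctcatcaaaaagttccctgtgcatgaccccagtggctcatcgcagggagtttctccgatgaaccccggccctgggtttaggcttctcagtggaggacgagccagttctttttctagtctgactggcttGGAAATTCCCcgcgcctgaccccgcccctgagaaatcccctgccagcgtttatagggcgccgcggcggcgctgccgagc
Tnfaip3, chr10:19015361-19015660, minus strand: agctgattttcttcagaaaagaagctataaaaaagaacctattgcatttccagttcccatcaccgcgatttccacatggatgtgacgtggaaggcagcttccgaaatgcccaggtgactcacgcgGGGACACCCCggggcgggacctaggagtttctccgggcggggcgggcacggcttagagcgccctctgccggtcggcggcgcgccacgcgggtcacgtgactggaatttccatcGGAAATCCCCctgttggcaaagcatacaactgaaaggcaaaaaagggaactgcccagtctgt
Ptgs2, chr1:150099781-150100080, plus strand: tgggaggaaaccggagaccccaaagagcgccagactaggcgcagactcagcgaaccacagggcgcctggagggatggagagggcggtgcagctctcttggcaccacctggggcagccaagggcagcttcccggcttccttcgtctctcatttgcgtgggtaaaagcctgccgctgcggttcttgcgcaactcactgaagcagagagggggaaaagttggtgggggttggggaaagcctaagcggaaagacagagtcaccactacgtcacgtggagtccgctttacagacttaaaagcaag
The match of Nfkbia starts 29 bases before the transcription start. Those of Tnfaip3 start 125 and 12 bases before it, and those of Nfkb2 start 39, 38 and 11 bases before it.

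Levels were divided by the merged length of all annotated exons of a gene. This was 12061 bases for Nfkb1, 8870 for Vcam1 and 1610 for Nfkbia. It may exceed the length of the mRNA present, so ranks between genes depend on it. On this measure the inhibitor gene Nfkbia ranked first in 6 of the 7 stages, with mean levels of 12.1 CPM per kb at 36.5 dpp to 94.3 at D30. Vcam1 was next, with 11.8 to 21.4 CPM per kb, and first at 36.5 dpp with 15.5. Nfkb1, Nfkb2, Relb, Birc3 and Icam1 formed a middle group between 0.504 and 8.55 CPM per kb, Tnfaip3 was the eighth in every stage with 0.243 to 1.61, and Ptgs2 and Nos2 stayed under 1. In testes of 6.5 and 10.5 dpp Nfkb1 led the middle group with 4.76 and 5.07 CPM per kb. At 22.5 dpp Relb (3.28) and Nfkb2 (2.65) stood above Nfkb1 (1.67), and at 36.5 dpp Nfkb1 led again with 1.44. In explants Nfkb2 led it with 7.20 at D4, 6.25 at D16 and 8.55 at D30, followed by Relb with 6.64, 5.13 and 7.85. Some ranks differed by mean CPM without length. Vcam1 (161.6) stood above Nfkbia (38.1) at 22.5 dpp. Nfkb1 (55.7) stood above Nfkb2 (33.0) at D4, though not at D30 (35.5 and 39.2).

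**Figure D1:**
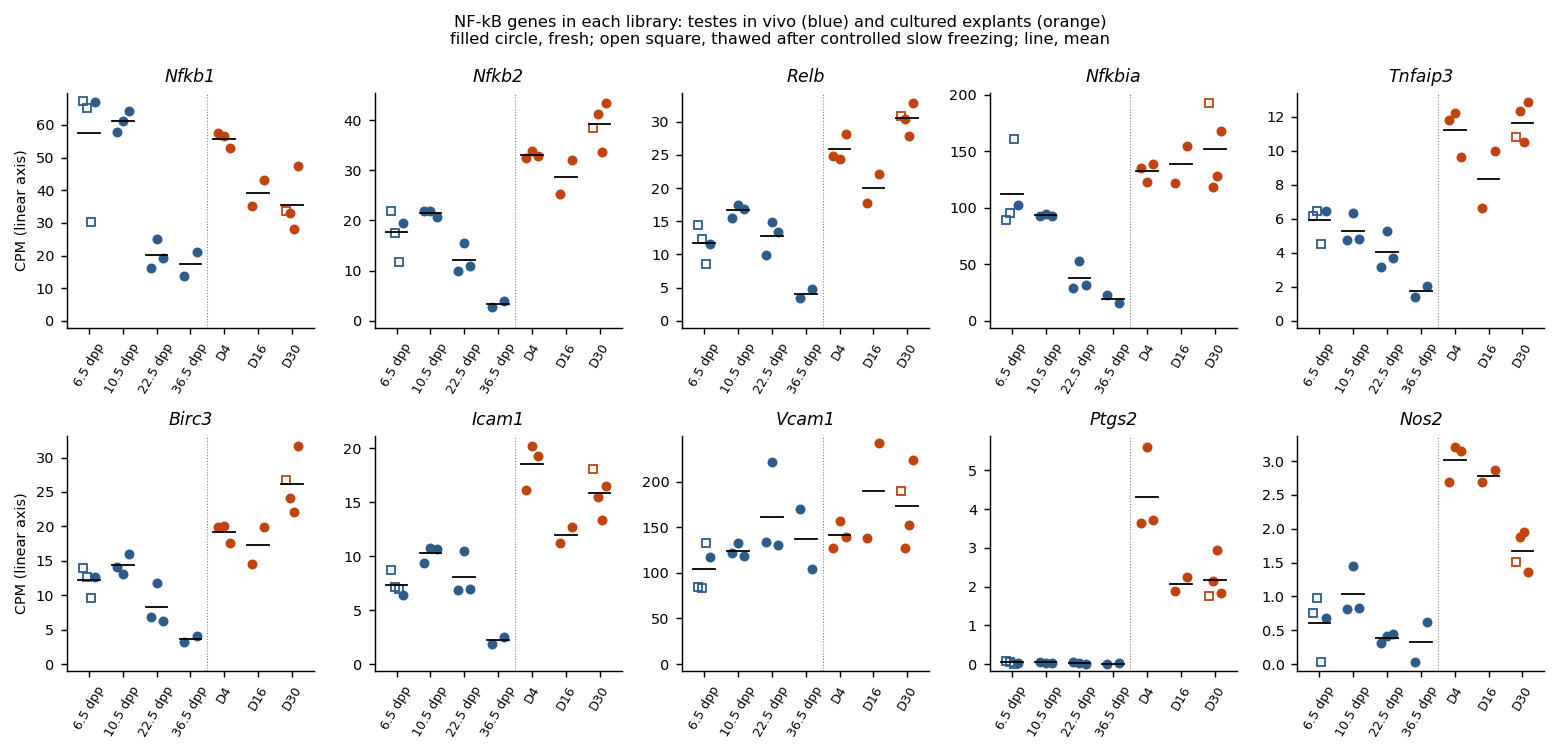
Level of each member in CPM (y axis, linear, its own range in each panel) in the 21 libraries by stage (x axis), testes in blue and explants in orange, CSF tissue as open squares, means as lines. Ptgs2 lies at the bottom of its panel in every testis library (at most 0.0832 CPM) and between 1.76 and 5.61 CPM in explants, and Vcam1 shows no such step.

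The subunits behaved unlike each other. Nfkb1, which encodes the p105 precursor of p50, was at 57.6, 56.7 and 52.8 CPM at D4, 35.0 and 43.2 at D16, and 28.1, 33.0, 33.7 and 47.4 at D30. In testes it was at 30.3 (CSF replicate 3), 65.2, 67.0 and 67.2 CPM at 6.5 dpp, 57.9, 61.2 and 64.2 at 10.5 dpp, 16.2, 19.3 and 25.0 at 22.5 dpp, and 13.7 and 21.1 at 36.5 dpp. It thus lay highest in young testes and at D4, and lower in older tissue of either kind.

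Nfkb2, the p100 precursor of the non-canonical branch, was at 32.5, 33.8 and 32.8 CPM at D4, 25.3 and 32.01 at D16, and 33.6, 38.4, 41.3 and 43.4 at D30. Its testis levels were 11.7, 17.5, 19.5 and 21.8 CPM at 6.5 dpp and 20.6, 21.8 and 21.8 at 10.5 dpp. With age they went down to 10.0, 11.0 and 15.4 CPM at 22.5 dpp and 2.82 and 4.01 at 36.5 dpp. Among the libraries compared, every culture library was above every testis library. The testis library left out, 6.5 dpp fresh replicate 1, had 26.2 CPM, above the lower D16 library.

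Relb, the partner of the Nfkb2 product, was at 24.4, 24.9 and 28.1 CPM at D4, 17.7 and 22.2 at D16, and 27.8, 30.4, 30.8 and 32.9 at D30. In testes it was at 8.57, 11.6, 12.3 and 14.4 CPM at 6.5 dpp and 15.5, 16.9 and 17.5 at 10.5 dpp. The older testes had 9.98, 13.3 and 15.0 CPM at 22.5 dpp and 3.45 and 4.78 at 36.5 dpp. Among the libraries compared, no testis library reached the lowest culture library.

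Nfkbia and Tnfaip3 are feedback inhibitors. Nfkbia, whose product IkB-alpha binds the dimers and is remade under their control, was at 123 to 139 CPM at D4, 122 and 154 at D16, and 118 to 193 at D30. Testes held 89.0, 95.5, 102 and 161 CPM at 6.5 dpp and 92.4 to 94.9 at 10.5 dpp. At 22.5 dpp they held 29.3, 32.2 and 52.8 CPM and at 36.5 dpp 16.2 and 22.6. The 161 CPM of CSF replicate 3 lie above all but 2 of the culture libraries, so that culture and 6.5 dpp testes overlap.

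Tnfaip3 encodes A20, an enzyme that edits ubiquitin chains and ends the signal. It was at 9.65, 11.8 and 12.2 CPM at D4, 6.66 and 10.0 at D16, and 10.5, 10.8, 12.3 and 12.8 at D30. Testes had 4.55 to 6.47 CPM at 6.5 dpp and 4.76, 4.84 and 6.34 at 10.5 dpp, then 3.14, 3.70 and 5.29 at 22.5 dpp and 1.43 and 2.08 at 36.5 dpp. Of the libraries compared, no testis reached the lowest explant library. The left-out 6.5 dpp fresh replicate 1 had 7.66 CPM, above the lower D16 library. Birc3, a ubiquitin ligase that guards cells against death through TNF receptors, was at 17.5, 19.9 and 20.1 CPM at D4, 14.6 and 19.9 at D16, and 22.1, 24.2, 26.7 and 31.7 at D30. In testes it was at 9.56 to 14.0 CPM at 6.5 dpp, 13.1, 14.1 and 15.9 at 10.5 dpp, 6.23, 6.87 and 11.7 at 22.5 dpp, and 3.21 and 4.06 at 36.5 dpp. The highest testis library compared, of 10.5 dpp, was above the lower D16 library, so that explants and testes overlap.

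The adhesion molecules parted. Icam1, a ligand of leukocyte integrins, was at 16.1, 19.3 and 20.2 CPM at D4, 11.2 and 12.7 at D16, and 13.4, 15.5, 16.5 and 18.1 at D30. In testes it was at 6.41 to 8.73 CPM at 6.5 dpp, 9.41 to 10.7 at 10.5 dpp, 6.87, 6.99 and 10.5 at 22.5 dpp, and 1.87 and 2.52 at 36.5 dpp. Explants and testes did not overlap, and the highest testis library was 10.5 dpp replicate 2. Vcam1, another ligand of integrins, was at 127 to 157 CPM at D4, 138 and 242 at D16, and 127 to 223 at D30, and at 83.7 to 133 CPM at 6.5 dpp and 104 to 221 in older testes. Its highest testis level, 221 CPM, was in 22.5 dpp replicate 2, so that explants and testes overlap.

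Ptgs2 encodes cyclooxygenase-2, which makes prostaglandins in inflamed tissue. It had 157, 234 and 256 counts at D4 (3.65, 5.61 and 3.71 CPM), 75 and 103 at D16 (1.89 and 2.25 CPM), and 70, 73, 89 and 116 at D30 (1.76, 1.84, 2.15 and 2.94 CPM). In testes it had 0, 2, 2 and 4 counts at 6.5 dpp, 1, 2 and 3 at 10.5 dpp, 0, 1 and 2 at 22.5 dpp, and 0 and 1 at 36.5 dpp. A single one of the testis libraries compared thus had more than 3 counts, and D4 had the highest levels.

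Nos2, the inducible nitric oxide synthase, was at 2.69, 3.14 and 3.21 CPM at D4, 2.69 and 2.86 at D16, and 1.36, 1.51, 1.88 and 1.95 at D30. Testes held 0.0353, 0.689, 0.749 and 0.973 CPM at 6.5 dpp and 0.808, 0.837 and 1.45 at 10.5 dpp. They held 0.317, 0.417 and 0.443 CPM at 22.5 dpp and 0.0297 and 0.617 at 36.5 dpp, where replicate 1 had 1 count and replicate 2 had 24. D4 and D16 lay above all testes compared, and D30 overlapped with 10.5 dpp replicate 2. The left-out 6.5 dpp fresh replicate 1 had 2.90 CPM, above both D16 libraries.

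The comparison of D4 with 6.5 dpp sets explants against testes of the age at which they were cut. The D4 explants were fresh and most 6.5 dpp libraries were of CSF tissue, and 4 days of age also part the groups. Culture, age and freezing cannot be told apart here. Relb (log2 fold change 1.17 ± 0.16 SE, adjusted p = 5.83e-05), Icam1 (1.37 ± 0.17, 1.60e-05) and Nos2 (2.31 ± 0.56, 0.00651) rose, as did Ptgs2 (adjusted p = 6.68e-08). For Ptgs2 pooled count rates are given, counts over library totals without TMM factors. Against the 8 counts of 4 testis libraries, the rate was 87.0 times as high in 3 explant libraries with 647 counts (exact 95% interval 43.9 to 202, for counting error only). So 4 of 10 members were called higher and 0 lower, where 6.87% and 5.82% of all genes were. For Nfkb2 (0.94 ± 0.18, adjusted p = 0.000953), Tnfaip3 (0.95 ± 0.20, 0.00257) and Birc3 (0.68 ± 0.19, 0.0144) the difference passed the test and stayed under 2-fold. Nfkb1 (0.00 ± 0.22), Nfkbia (0.24 ± 0.23, adjusted p = 0.492) and Vcam1 (0.44 ± 0.24, 0.213) did not pass it.

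In 7 of 10 members all D4 libraries were above all 6.5 dpp libraries, against 16.5% of all genes. The same 4 members were called without CSF replicate 3. With the library labelled 6.5 dpp fresh replicate 1 put back, Relb (0.99, adjusted p = 0.00659) fell just under 2-fold, Nos2 (1.41, adjusted p = 0.202) no longer passed and the count was 2.

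Set against testes of the same age, 10.5 dpp, which share the D4 libraries with the comparison above, D4 gave fewer calls. Tnfaip3 (1.17 ± 0.22, adjusted p = 0.00228) and Ptgs2 (adjusted p = 4.58e-07) rose, the latter with a pooled count rate 94.99 times that of 10.5 dpp (43.4 to 260, from 647 and 6 counts). These were 2 calls higher and 0 lower of 10, against 3.45% and 2.43% of all genes. Icam1 (0.94 ± 0.18, adjusted p = 0.00291), Relb (0.72 ± 0.18, 0.0148) and Nfkb2 (0.71 ± 0.19, 0.0259) passed the test below 2-fold. Nos2 (1.64 ± 0.60, 0.109), Nfkbia (0.59 ± 0.25, 0.181), Birc3 (0.50 ± 0.20, 0.152), Vcam1 (0.27 ± 0.26, 0.694) and Nfkb1 (−0.04 ± 0.24, 0.986) did not. The D4 libraries were above all 10.5 dpp libraries for 8 members and below them for Nfkb1, where 17.3% and 31.2% of all genes were so placed.

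At D16 against 22.5 dpp, Nfkbia (1.72 ± 0.27, adjusted p = 0.000338), Nfkb2 (1.09 ± 0.21, 0.00163), Nos2 (2.67 ± 0.68, 0.0110) and Ptgs2 (4.25e-06) were called higher and 0 members lower, against 8.83% and 8.24% of all genes. The Ptgs2 rate was 79.8 times as high (26.9 to 391, from 178 and 3 counts). Birc3 (0.92 ± 0.22, 0.00778), Tnfaip3 (0.90 ± 0.24, 0.0141) and Nfkb1 (0.81 ± 0.26, 0.0324) passed the test below 2-fold. Relb (0.49 ± 0.20, 0.0691), Icam1 (0.42 ± 0.20, 0.134) and Vcam1 (0.09 ± 0.29, 0.841) did not. In 9 members the D16 libraries lay above all of 22.5 dpp, as in 29.2% of all genes. The number of calls turned on single libraries: 4 members were called with all libraries, 6 without 22.5 dpp replicate 2 or without D16 replicate 1, and 2 without D16 replicate 2, where Nfkb2 (0.95, adjusted p = 0.0398) and Nos2 (2.65, 0.0579) were lost. Nos2 was also lost without 22.5 dpp replicate 1 (2.57, adjusted p = 0.0503). Nfkb2 fell under 2-fold with RLE factors (median-of-ratios scaling) and with DESeq2.

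At D30 against 36.5 dpp, Nfkb2 rose 7.33-fold (2.87 ± 0.24, adjusted p = 6.55e-08), Nfkbia 5.00-fold (2.32 ± 0.30, 4.46e-06), Relb 4.74-fold (2.25 ± 0.21, 2.13e-07), Icam1 4.61-fold (2.21 ± 0.22, 3.75e-07), Birc3 4.60-fold (2.20 ± 0.24, 8.93e-07) and Tnfaip3 4.24-fold (2.08 ± 0.26, 3.61e-06). Nos2 was called with 3.23-fold (1.69 ± 0.73, adjusted p = 0.0476), just inside the threshold, and lost the call without any one of 15 libraries, most of all without 36.5 dpp replicate 1 (0.78, adjusted p = 0.372). For Ptgs2 (adjusted p = 2.26e-06) the rate over library totals was 157 times as high, from 348 counts in 4 libraries against 1 count in 2 (interval 28.1 to 6235). On the TMM scale of the other members the fitted change of Ptgs2 was 89.9-fold. These 8 calls higher and 0 lower compare with 25.2% and 29.8% of all genes. Nfkb1 (0.38 ± 0.26, 0.198) and Vcam1 (−0.31 ± 0.27, 0.326) did not pass. The D30 libraries were above both 36.5 dpp libraries for 9 members, as for 47.6% of all genes.

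**Figure D2:**
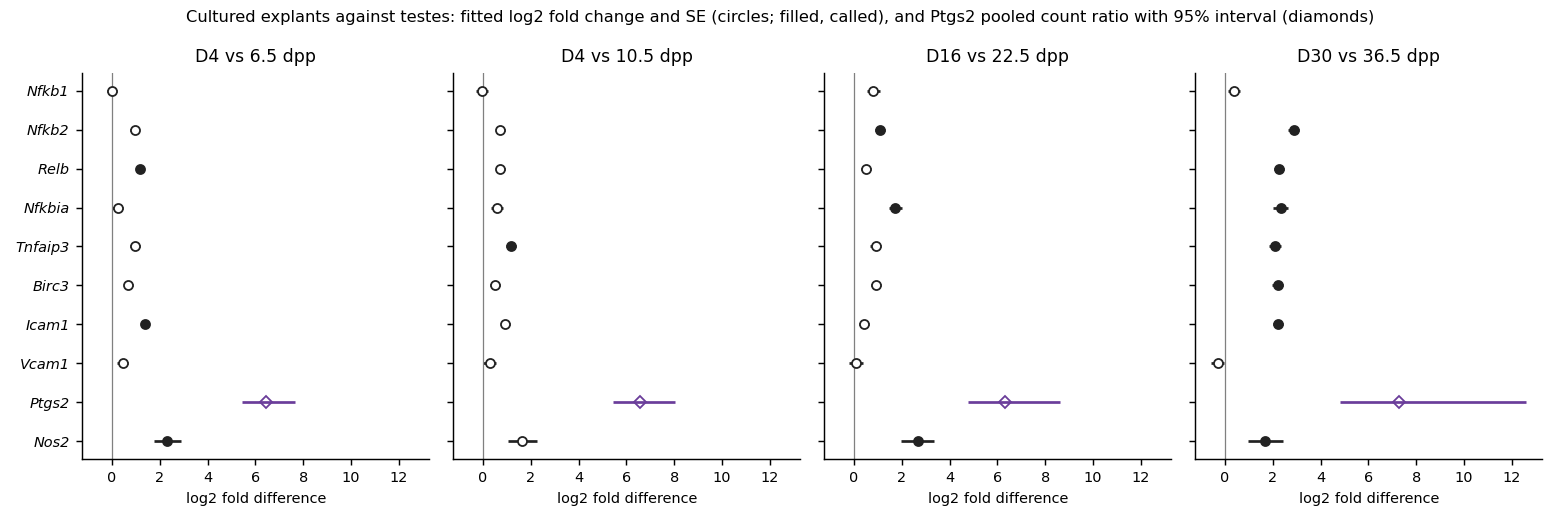
Log2 fold difference between explants and testes (x axis) for each member (y axis) in 4 comparisons. Circles give the fitted log2 fold change with its SE, filled where called. Diamonds give the log2 of the pooled count ratio of Ptgs2, over library totals and not on the TMM scale, with its exact 95% interval. Ptgs2 lies far to the right in all 4 panels. The other members lie further right for D30 against 36.5 dpp than for D4 against 10.5 dpp, save Vcam1 (further left) and Nos2 (hardly moved). Nfkb1 moves little (−0.04 to 0.38). Relb, Icam1 and Tnfaip3 are further left at D16 than at D4.

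The make-up of the tissue moved with these differences. In bulk tissue, fewer cells of a type and less RNA per cell cannot be told apart. Summed over 5 genes, spermatid markers were at 16421 to 21335 CPM at 36.5 dpp, 346 to 1635 at D30, 9.10 to 60.0 at 22.5 dpp and 5.07 to 27.1 at D16, and at most 4.82 in all earlier groups. Peritubular and stromal markers (6 genes) were at 165 to 262 CPM at 36.5 dpp against 1120 to 1800 at D30, and at 631.5 to 975 at 22.5 dpp against 1355 to 1450 at D16. They were at 1753 to 2212 CPM at D4, 2103 to 2227 at 10.5 dpp and 2170 to 2924 at 6.5 dpp. Endothelial markers (7 genes) were at 26.1 to 28.1 CPM at 36.5 dpp against 175 to 233 at D30, and at 52.3 to 79.5 at 22.5 dpp against 257 to 354 at D16. At D4 they were at 268 to 314 CPM, above the 217 to 255 of 10.5 dpp and the 151 to 249 of 6.5 dpp, and 4 of the 7 genes were higher on average at D4 in either comparison. Sertoli cell markers (6 genes, of which Vim and Gata4 are also in the somatic scale used further on) were at 8240 to 9164 CPM at D4 against 3421 to 4668 at 6.5 dpp and 5300 to 5692 at 10.5 dpp, at 5760 to 7566 at D16 against 1798 to 3059 at 22.5 dpp, and at 5991 to 9866 at D30 against 739 to 955 at 36.5 dpp. Markers of spermatogonia and spermatocytes (6 genes) were at 3609 to 4063 CPM at 22.5 dpp, 2810 to 2929 at 36.5 dpp, 1264 to 2637 at D30, 1018 to 1232 at D4 and 989 to 1700 at 6.5 dpp. So Sertoli and endothelial sums were higher at D4 than in either group of testes it was set against, without overlap. Stromal sums were not. The Sertoli sum was mostly Clu, with a mean of 6387 CPM at D4, 2109 at 6.5 dpp and 3728 at 10.5 dpp. Of the 6 Sertoli genes, 4 were higher and 2 lower on average at D4 against 6.5 dpp, and 5 and 1 against 10.5 dpp.

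Leukocyte markers did not move alike. Macrophage markers (7 genes) were at 31.0 to 33.4 CPM at D4 against 61.8 to 93.6 at 6.5 dpp and 111 to 136 at 10.5 dpp, and the mean of each of the 7 was lower at D4. At D16 they were at 118 to 133 CPM against 168 to 229 at 22.5 dpp, with 5 lower and 2 higher on average. At D30 the sum was 192 to 228 CPM against 453 to 496 at 36.5 dpp, but the latter was mostly Aif1, with a mean of 416 CPM at 36.5 dpp and 40.5 at D30. The other 6 were above 36.5 dpp in every D30 library, and their sum, formed after the values were seen, was 147 to 207 CPM at D30 and 53.8 to 62.8 at 36.5 dpp. Lymphocyte and neutrophil markers (8 genes) summed to at most 3.81 CPM in any library, and 2 to 5 of them had at most 3 counts in every library of a stage. Leydig cell markers (5 genes) were at 291 to 509 CPM at D4 against 595 to 922 at 6.5 dpp and 988 to 1144 at 10.5 dpp, and at 317 to 571 at D30 against 1549 to 1925 at 36.5 dpp. The highest levels of Ptgs2 and of Nos2 were in D4 libraries, where macrophage markers were lowest. The part of cell numbers in the results was not tested.

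**Figure D3:**
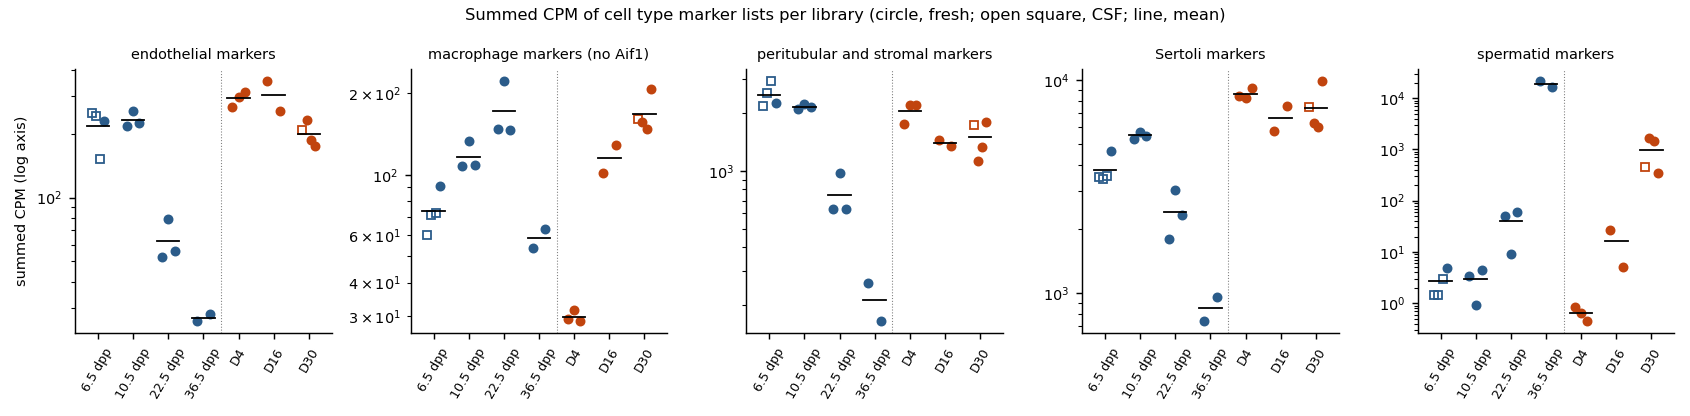
Summed CPM (y axis, log) of 5 marker lists per library by stage (x axis), with symbols as in the plot of member levels. Spermatid markers reach 16421 to 21335 CPM at 36.5 dpp, where endothelial, stromal and Sertoli markers are lowest, and macrophage markers, here without Aif1, are at 53.8 to 62.8 CPM at 36.5 dpp and 147 to 207 at D30.

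Many calls of the later stages depended on the scale. As an alternative, libraries were scaled by the summed counts of 10 genes of somatic cells (Vim, Bgn, Dcn, Acta2, Gata4, Pdgfra, Tcf21, Nr2f2, Lamc1 and Col4a1), which made up 4361 to 5581 CPM in the libraries of 6.5 dpp, 10.5 dpp and D4, 2456 to 3405 at D16 and D30, 1188 to 1901 at 22.5 dpp and 312 to 396 at 36.5 dpp. These genes may themselves respond to culture. Relative to them the median of all genes moved by −2.39 on the log2 scale for D30 against 36.5 dpp, by −1.09 for D16 against 22.5 dpp, by −0.20 for D4 against 10.5 dpp, and by 0.00 for D4 against 6.5 dpp.

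For D30 against 36.5 dpp, Nfkb2 was then at 0.45 (adjusted p = 0.112), Nfkbia at −0.07 (0.779), Relb at −0.18 (0.507), Icam1 at −0.22 (0.361), Birc3 at −0.22 (0.356), Tnfaip3 at −0.33 (0.258) and Nos2 at −0.76 (0.344), and none of them passed. Nfkb1 (−2.07, adjusted p = 1.19e-06) and Vcam1 (−2.70, 1.37e-08) fell. Ptgs2 remained higher, with a count ratio of 19.0 relative to the somatic genes (interval 3.39 to 753). Over all genes, 4861 were called higher and 5730 lower on the main scale, 190 and 15147 on the somatic scale, 3881 and 6588 with RLE factors, and 7548 and 3909 with library sizes alone, which gave 9 members higher.

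For D16 against 22.5 dpp, Ptgs2 was the only member called on the somatic scale (count ratio 35.9, interval 12.1 to 176). Nfkbia was at 0.68 (adjusted p = 0.0252), Nos2 at 1.60 (0.0619) and Nfkb2 at 0.03 (0.920), while Icam1 (−0.64, 0.0228) and Vcam1 (−0.95, 0.00715) passed the test below 2-fold in the other direction. Here 1700 genes were called higher and 1587 lower on the main scale, 307 and 9516 on the somatic scale, 1412 and 1995 with RLE factors, 1454 and 2236 with DESeq2, and 2232 and 1082 with library sizes alone. For D4 against 10.5 dpp, where 664 genes were higher and 467 lower on the main scale and 443 and 679 on the somatic scale, Ptgs2 was called (count ratio 86.6, interval 39.6 to 237), Tnfaip3 (0.97, 0.0231) and Icam1 (0.73, 0.0329) passed below 2-fold, and the other 7 did not pass. For D4 against 6.5 dpp the calls were those of the main scale, with Relb at 1.17, Icam1 at 1.36, Nos2 at 2.30 and a Ptgs2 count ratio of 88.0 (44.4 to 205).

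**Figure D4:**
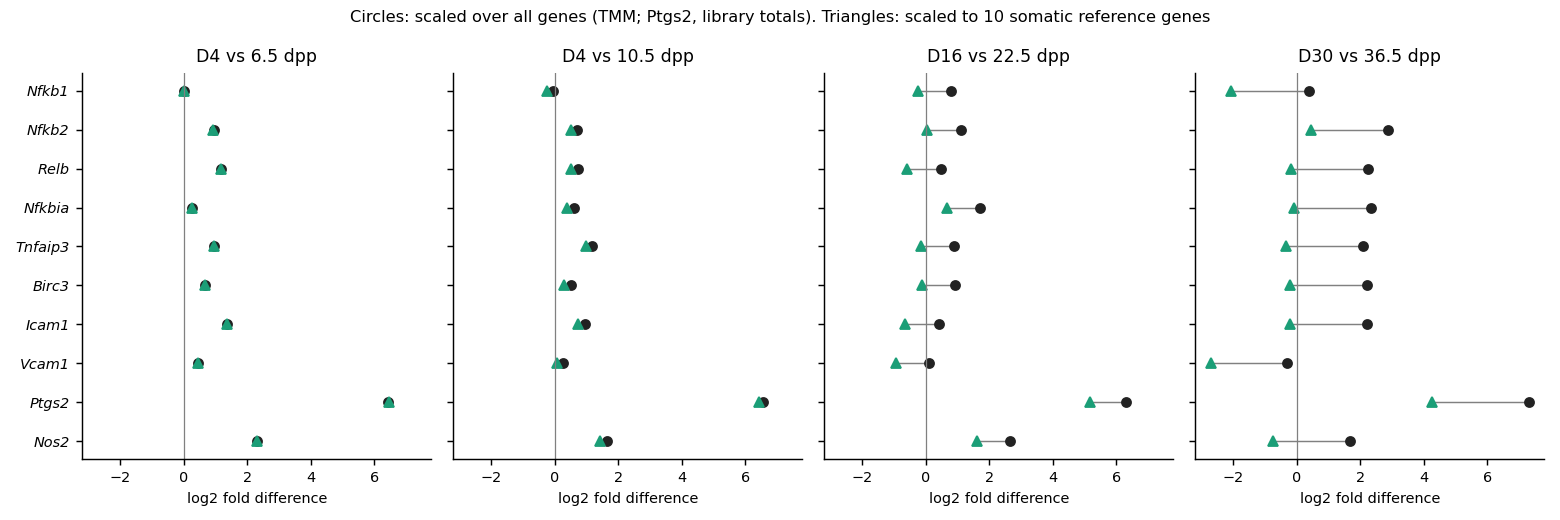
Log2 fold difference (x axis) of each member (y axis) on the scale over all genes (circles) and on the scale of 10 somatic reference genes (triangles). For Ptgs2 both are pooled count ratios, the circle over library totals without TMM factors and the triangle over the somatic counts. The symbols coincide for D4 vs 6.5 dpp and part by more than 2 log2 units for D30 vs 36.5 dpp, where most triangles lie near 0 and only that of Ptgs2 stays far to the right.

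Whether the distance between explant and testis grew with time was tested as a difference of differences. From D4 to D30 it grew for Nfkb2 (by 2.16 ± 0.29 on the log2 scale, adjusted p = 2.75e-05), Nfkbia (1.73 ± 0.37, 0.00124), Birc3 (1.70 ± 0.30, 0.000275), Relb (1.52 ± 0.26, 0.000226) and Icam1 (1.27 ± 0.27, 0.00129). In testes the mean CPM of all 5 fell from 10.5 to 36.5 dpp. The falls were 21.4 to 3.42 (Nfkb2), 93.3 to 19.4 (Nfkbia), 14.4 to 3.64 (Birc3), 16.6 to 4.11 (Relb) and 10.3 to 2.20 (Icam1). In explants the means at D4 and D30 were 33.0 and 39.2, 132 and 152, 19.2 and 26.2, 25.8 and 30.5, and 18.6 and 15.9, in the same order. The test gave 5 calls higher and 0 lower, against 22.5% and 18.7% of all genes. On the somatic scale, which moved the median of all genes by −2.19 for this contrast, the 5 values were below 0, from −0.05 for Nfkb2 to −0.94 for Icam1 (adjusted p = 0.00871). For Ptgs2 (fitted difference −0.10) no change could be detected against so few testis counts. Tnfaip3 (−1.30, 0.00431), Nfkb1 (−1.82, 0.000407) and Vcam1 (−2.75, 2.69e-06) were called lower there. Over all genes, 4340 were called higher and 3603 lower on the main scale, 141 and 12736 on the somatic scale, 3454 and 4361 with RLE factors, 3538 and 4755 with DESeq2, and 7380 and 1987 with library sizes alone. From D4 to D16, edgeR called 0 members in either direction, against 4.74% and 4.09% of all genes; 2 had an unadjusted p under 0.05, and DESeq2 called 0. The somatic scale moved the median of all genes by −0.88 here. The higher and lower calls over all genes were 913 and 788 on the main scale, 218 and 4660 on the somatic scale, 1018 and 1317 with DESeq2, and 1479 and 568 with library sizes alone.

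Explants were also compared with each other. Between D16 and D4 edgeR called 0 members, against 16.6% of all genes higher and 3.21% lower at D16; 2 had an unadjusted p under 0.05 and DESeq2 called 1. Over all genes, 3198 were higher and 619 lower on the main scale, and 4850 and 182 on the somatic scale. Icam1 was lower at D16 (−0.58 ± 0.21, adjusted p = 0.0481) by less than 2-fold. The rate of Ptgs2 counts at D4 was 2.02 times that at D16 (1.71 to 2.40 for counting error only) over library totals and 1.33 times (1.13 to 1.58) over the somatic counts, and the fitted difference did not pass (adjusted p = 0.0985). Against D30 the rate at D4 was 1.94 times as high (1.70 to 2.22) over library totals and 1.13 times (0.990 to 1.29) over the somatic counts. D16 libraries were below all D4 libraries for 5 members, Nfkb1, Nfkb2, Relb, Icam1 and Ptgs2, as for 27.8% of all genes. Between D30 and D16, edgeR called 0 members, against 1.41% higher and 0.254% lower of all genes, with 5 at an unadjusted p under 0.05 and 0 called by DESeq2. The smallest p among them were those of Relb (0.64 ± 0.19, adjusted p = 0.113) and Birc3 (0.63 ± 0.22, 0.191). D30 libraries were above both D16 libraries for Nfkb2, Relb, Tnfaip3, Birc3 and Icam1 and below them for Nos2, as for 8.12% and 8.38% of all genes.

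In vivo the levels of several members went down with age on the scale over all genes. Between 10.5 and 6.5 dpp edgeR called 0 members, against 0.545% higher and 0.358% lower of all genes; 2 had an unadjusted p under 0.05 and DESeq2 called 0. Over all genes, 105 were higher and 69 lower on the main scale, 153 and 28 on the somatic scale, 115 and 56 with library sizes alone, and 160 and 192 with DESeq2. At 22.5 dpp, Nfkb1 fell by 1.31 ± 0.24 (adjusted p = 0.00015) and Nfkbia fell by 1.02 ± 0.25 (0.00195) against 10.5 dpp, 2 calls lower and 0 higher where 18.4% and 27.9% of all genes were called. At 36.5 dpp against 22.5 dpp, Icam1 fell by 1.36 ± 0.22 (9.61e-05), Nfkb2 fell by 1.30 ± 0.23 (0.000193) and Relb fell by 1.11 ± 0.21 (0.000332), 3 calls lower and 0 higher against 17.2% and 20.5%. On the somatic scale these 5 values were 0.08 for Nfkb1, 0.36 for Nfkbia, 0.17 for Icam1, 0.23 for Nfkb2 and 0.40 for Relb, and none of the 5 passed. Instead Relb, Tnfaip3, Icam1 and Vcam1 were called higher at 22.5 dpp, by 1.27 to 2.03, and Nfkb1, Nfkbia and Vcam1 at 36.5 dpp, by 1.05 to 1.84. The median of all genes moved by 1.41 and 1.47 between these scales. The fall of Nfkbia was under 2-fold without 22.5 dpp replicate 1 (−0.90, adjusted p = 0.0143), without 22.5 dpp replicate 3 (−0.94, 0.0122) and without 10.5 dpp replicate 2 (−0.999, 0.00668), and that of Relb without 36.5 dpp replicate 1 (−0.88, 0.0129). With RLE factors and with DESeq2 both were under 2-fold, Nfkbia at −0.96 in each, and Relb at −0.92 (adjusted p = 0.00116) and −0.91 (8.91e-06). Over all genes, 5366 were higher and 3541 lower at 22.5 dpp on the main scale, 11695 and 371 on the somatic scale, and 4651 and 5016 with library sizes alone. At 36.5 dpp 3956 were higher and 3316 lower on the main scale, 11245 and 76 on the somatic scale, 4473 and 2177 with RLE factors, 4353 and 2184 with DESeq2, and 2936 and 6785 with library sizes alone.

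Freezing could be read from values only, since 1 library stood on one side. The fresh 6.5 dpp library lay above the range of the 3 CSF libraries for Tnfaip3 (6.47 against at most 6.45 CPM). It lay below that range for Icam1 (6.41 against at least 6.95) and within it for the other members. The D30 CSF library lay within the 3 fresh D30 libraries for 7 members, above them for Nfkbia (193 against at most 168 CPM) and Icam1 (18.1 against 16.5), and below them for Ptgs2 (1.76 against at least 1.84).

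Other genes of the pathway were taken as 4 lists. These too were chosen with earlier results of these data known, so that their counts are descriptions and no test of enrichment. Their counts stand against 6.87% of all genes higher and 5.82% lower for D4 against 6.5 dpp, 3.45% and 2.43% for D4 against 10.5 dpp, 8.83% and 8.24% for D16, and 25.2% and 29.8% for D30 against testes of the same age. On the somatic scale, of all 19255 genes 443 were higher and 679 lower for D4 against 10.5 dpp. There 307 and 9516 were so called for D16, and 190 and 15147 for D30. Somatic counts of the lists are to be read against these. Of 13 other subunits and inhibitors, 3 were called higher and 0 lower at D4 against 6.5 dpp. These were Bcl3 (2.12 ± 0.24, adjusted p = 5.24e-06), an IkB protein that acts in the nucleus, Nfkbiz (1.42 ± 0.18, 1.69e-05), another one, and Cyld (1.06 ± 0.17, 0.000201), which removes ubiquitin chains. Against 10.5 dpp, Nfkbiz (1.47 ± 0.19, 6.97e-05) and Bcl3 (1.72 ± 0.26, 0.000264) were called, also on the somatic scale. At D16, 3 were called (Tnip3, 2.83 ± 0.56; Bcl3, 1.33 ± 0.28; Nfkbid, 1.33 ± 0.33), and 1 higher and 2 lower on the somatic scale. At D30, 9 were called higher, led by Bcl3 (3.196 ± 0.32) and Tnip1 (1.83 ± 0.20), and Nfkbib (−2.07 ± 0.22), which encodes IkB-beta, was called lower; on the somatic scale the list gave 1 higher and 7 lower.

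Of 20 kinases and adaptors, which carry the signal from receptor to IkB, edgeR called 0 at D4 against 6.5 or 10.5 dpp (7 and 4 at an unadjusted p under 0.05, and 0 by DESeq2 in both). At D16 against 22.5 dpp, Map3k8 (1.03 ± 0.33, adjusted p = 0.0310) was called, while 0 of the 20 were with RLE factors or DESeq2. At D30, 12 were called higher and 1 lower, the former led by Irak1 (2.25 ± 0.27), Ikbkg (2.28 ± 0.30) and Ripk1 (1.42 ± 0.20). On the somatic scale 0 of the 20 were higher and 14 lower at D30, where 190 of 19255 genes were higher and 15147 lower. At D16 the somatic scale gave 0 higher and 9 lower, where 307 genes were higher and 9516 lower.

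Of 18 ligands and receptors tested, 6 were called higher and 2 lower at D4 against 6.5 dpp. The cytokine Il1a (3.21 ± 0.36, adjusted p = 5.47e-06), the BAFF receptor Tnfrsf13c (2.84 ± 0.39, 5.26e-05) and the interleukin-1 receptor Il1r1 (1.18 ± 0.17, 8.80e-05) led them. Against 10.5 dpp, 3 were called higher, namely Il1a (1.88 ± 0.35), the TNF receptor Tnfrsf1b (1.11 ± 0.25) and the BAFF gene Tnfsf13b (1.33 ± 0.34); on the somatic scale 1 was higher and 2 lower. At D16, 5 were called higher, led by the lymphotoxin receptor Ltbr (1.19 ± 0.22), its ligand Ltb (2.47 ± 0.49) and the TNF receptor Tnfrsf1a (1.17 ± 0.24), and 3 higher and 4 lower on the somatic scale. At D30, 11 were called higher and 2 lower, with Tnfrsf1a (2.30 ± 0.26), Ltbr (2.13 ± 0.24) and, in the other direction, Tnfrsf13c (−3.27 ± 0.39) at the smallest p; on the somatic scale 2 were higher and 8 lower.

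The last list held 22 other targets that could be tested. Against 6.5 dpp, 14 were called higher and 0 lower, with a median log2 fold change of 2.72 where that of all genes was −0.03. The acute phase genes Saa3 (6.70 ± 0.52, adjusted p = 1.09e-07) and Lcn2 (3.66 ± 0.26, 5.21e-08) and the early response gene Ier3 (2.84 ± 0.23, 1.31e-07) had the smallest p. Against 10.5 dpp, 12 were called higher and 0 lower, again with Lcn2 (3.35 ± 0.28), Saa3 (6.38 ± 0.57) and Ier3 (2.47 ± 0.25) first; the counts on the somatic scale were 14 and 11, with 0 lower. At D16, 10 were called higher, led by Ier3 (3.13 ± 0.27), the urokinase gene Plau (2.77 ± 0.27) and Saa3 (5.45 ± 0.54), and on the somatic scale 5 higher and 5 lower. At D30, 14 were called higher and 3 lower, led by Ier3 (3.24 ± 0.30), Irf1 (2.92 ± 0.28) and Plau (3.17 ± 0.31), and on the somatic scale 6 higher and 7 lower.

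Without CSF replicate 3 and 22.5 dpp replicate 2, a choice made after seeing the data, the counts of some lists differed. Of the subunits and inhibitors, 2 were higher at D4 against 6.5 dpp and 4 at D16. Of the kinases and adaptors, 2 were higher at D16. Of the ligands and receptors, 6 were higher and 1 lower at D4 against 6.5 dpp, 4 and 1 against 10.5 dpp, 7 and 1 at D16, and 11 and 3 at D30. Of the other targets, 10 were higher and 1 lower at D16.

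**Figure D5:**
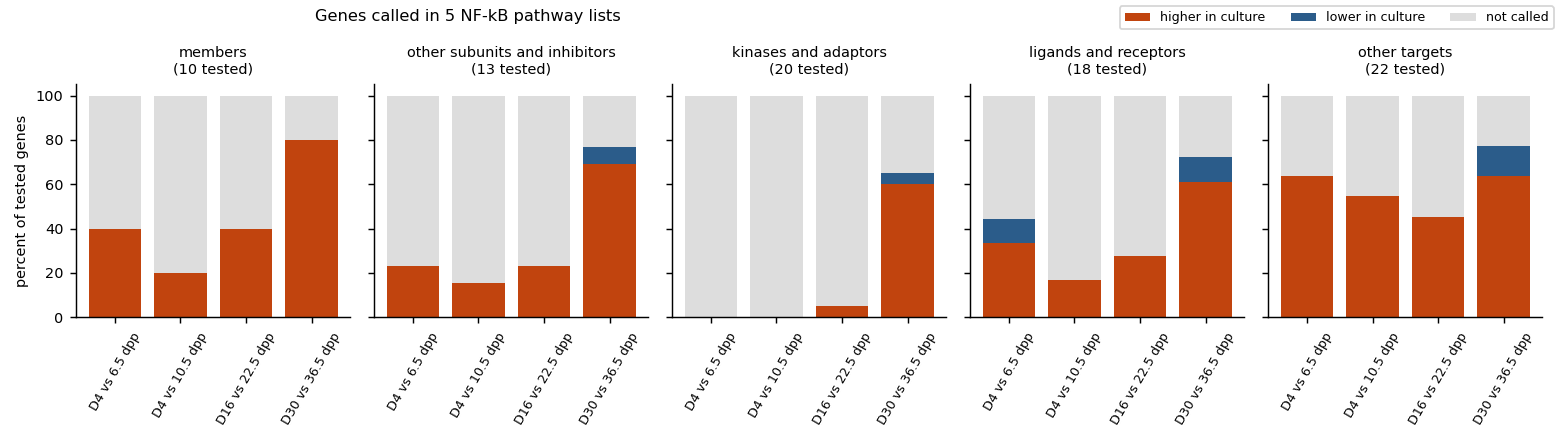
Share of tested genes (y axis, percent) called higher in explants, called lower or not called in the 10 members and in 4 further pathway lists, for 4 comparisons (x axis) on the scale over all genes. At D4 the list of other targets has 14 of 22 and 12 of 22 genes called higher, and the kinases and adaptors have 0 of 20.

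In testes of 22.5 dpp against 10.5 dpp the lists moved both ways. Among the genes with the smallest p, Lcn2 (4.05 ± 0.29), Tnfaip2 (3.71 ± 0.30), Il1a (3.74 ± 0.36), Nfkbib (1.38 ± 0.22) and Myd88 (1.20 ± 0.20) rose. Irf1 (−1.88 ± 0.23), Nfkbid (−2.005 ± 0.30), Map3k8 (−1.84 ± 0.31), Tnip1 (−1.38 ± 0.18), Irak1 (−1.18 ± 0.22), Tnfrsf1a (−1.19 ± 0.22) and Ltbr (−1.15 ± 0.20) fell. At 36.5 dpp against 22.5 dpp, Lcn2 (5.42 ± 0.30), Traf1 (4.27 ± 0.47), Tnfrsf13c (3.09 ± 0.43) and Nfkbib (1.72 ± 0.24) rose. Those that fell with the smallest p were Irf1, Csf1, Cyld, Rel, Tbk1, Irak1, Tlr2 and Tnfrsf1a, by 1.12 to 2.20 on the log2 scale. In all, 1, 1, 4 and 7 genes of the 4 lists were higher and 3, 4, 4 and 5 lower at 22.5 dpp (subunits and inhibitors, kinases and adaptors, ligands and receptors, other targets), and 1, 1, 2 and 4 higher and 5, 7, 3 and 5 lower at 36.5 dpp, where 27.9% of all genes were higher and 18.4% lower in the first step and 20.5% and 17.2% in the second. Without CSF replicate 3 and 22.5 dpp replicate 2 the counts were 1, 1, 3 and 6 higher and 4, 6, 4 and 4 lower at 22.5 dpp, and 1, 1, 3 and 4 higher and 5, 8, 1 and 5 lower at 36.5 dpp. On the somatic scale 7, 9, 12 and 15 were higher at 22.5 dpp, 5, 3, 9 and 8 at 36.5 dpp, and 0 lower in either. Of all 19255 genes, 11695 were higher and 371 lower on that scale at 22.5 dpp, and 11245 and 76 at 36.5 dpp.

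Over the 21 libraries, log2 CPM of Nfkb2, Relb, Tnfaip3, Birc3 and Icam1 went together, with Pearson's r of 0.88 to 0.96 between any pair of them. For these correlations CPM was taken over library totals adjusted by the TMM factors. Vcam1 went its own way, with r of −0.64 with Nfkb1 and −0.11 to 0.19 with the other 8. These values describe 7 stages more than 21 independent points. The genes whose pattern was most like that of a member, by the same measure, were Slc4a11 and Ttc7b for Nfkb2 (both r = 0.98), Prelp (0.98) and Sun2 (0.96) for Relb, Nipsnap2 and Casp6 (both 0.99) for Nfkbia, and Zmiz1 (0.98) and Zfp362 (0.97) for Nfkb1. They were Adam9 and Eepd1 (both 0.96) for Tnfaip3, Amigo2 and Pip5k1b (both 0.97) for Birc3, Man2b1 (0.97) and P2ry2 (0.96) for Icam1, Serpinb11 and Csn3 (both 0.95) for Ptgs2, Scn4b and Myo1d (both 0.89) for Nos2, and Aqp2 and Ugt1a6b (both 0.86) for Vcam1.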

How the data were processed

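RNA was sequenced from whole testes and explants (polyadenylated RNA, stranded dUTP libraries, single reads of 50 bases). Per the labels and the study's methods, the authors demultiplexed reads with bcl2fastq 2.17.1.14, aligned them to GRCm38 with STAR 2.7.3a and counted them per gene with HTSeq 0.12.4. The strand setting is not given in the sources used here. The deposited values are raw counts, not normalized. NCBI gene ids were turned into symbols through the RefSeq table of GRCm38.p6, which held 27373 of 27466 ids.

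The members and lists were chosen with earlier results of these data known. CPM is a count divided by the library total, times 1000000. Libraries were grouped by stage, CSF pooled with fresh, and fitted together (21 libraries, 7 stages) with edgeR 4.0.16 (TMM factors, filterByExpr, quasi-likelihood test, Benjamini-Hochberg adjustment over 19255 genes). DESeq2 1.42.0 was an alternative, as were RLE, library size and somatic gene scaling, other filters, thresholds and sets of libraries, and a replicate block. Somatic scaling used the summed counts of 10 genes as library size. Ratios of Ptgs2 are pooled count rates with exact 95% intervals, since testes held few counts, and cover counting error only. All members were named, and of each pathway list the 3 genes with the smallest p among those called. For likeness the 2 genes of highest Pearson's r over 21 libraries were named (log2 CPM on TMM-adjusted library totals, prior count 2). Scripts were tested on simulated data.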

Additional observations from a re-analysis of the deposited data

Results flagged for a closer look

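In the 6.5 dpp group, the lowest library was far from the others for 2 members: Nfkb1 at 30.3 CPM and Tnfaip3 at 4.55 CPM, both in CSF replicate 3. Such a gap was looked for in 20 groups of 4 libraries, and chance gives it in about 1 of 20.

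The difference between explant and testis was larger at D30 than at D4, by a test of that difference, for Nfkb2 (by 2.16 on the log2 scale), Nfkbia (1.73), Birc3 (1.70), Relb (1.52) and Icam1 (1.27). On the somatic scale, which moved the median of all genes by −2.19 for this contrast, the 5 values were below 0. Mean CPM of all 5 genes fell in testes from 10.5 to 36.5 dpp. In explants, from D4 to D30, that of Icam1 also fell and those of the others rose.

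The library labelled 6.5 dpp fresh replicate 1, which entered no comparison, lay above each of the 4 other 6.5 dpp libraries for 7 members. It had 26.2 CPM of Nfkb2 against at most 21.8, 16.9 of Relb against 14.4, 7.66 of Tnfaip3 against 6.47, 16.1 of Birc3 against 14.0 and 9.08 of Icam1 against 8.73. The gap was widest for Ptgs2, at 0.904 against 0.0832 CPM, and Nos2, at 2.90 against 0.973 CPM. For what share of all genes this library lay above the others was not computed, so the 7 members are a description only.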

How the results depend on the processing

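The counts of members called moved as follows. Somatic scaling gave 1 for D4 against 10.5 dpp (2 in the report), 1 for D16 against 22.5 dpp (4), 3 for D30 against 36.5 dpp (8; 1 higher and 2 lower), 1 for D16 against D4 (0), 4 for 22.5 against 10.5 dpp (2), and 4 and 3 for the growth of the difference to D16 (0) and D30 (5). Library size alone gave 5 for 36.5 against 22.5 dpp (3) and 1 for the growth to D16. RLE factors and DESeq2 gave 1 for 22.5 against 10.5 dpp, and DESeq2 gave 1 for D16 against D4. A stricter threshold (4-fold, adjusted p of 0.001) gave 1 for D4 against 10.5 dpp, D16 against 22.5 dpp, D4 against 6.5 dpp and the growth to D30, and 0 for both steps in vivo after 10.5 dpp; no fold limit gave 5, 7, 7 for the first 3 of these, 5 for each of the steps in vivo and 1 for D16 against D4. With 6.5 dpp fresh replicate 1, D4 against 6.5 dpp gave 2. Fresh libraries only, and only the groups compared, each gave 1 for the growth to D16. Without CSF replicate 3 and 22.5 dpp replicate 2, chosen after seeing the data, D16 against D4 and the growth to D16 gave 1, D16 against 22.5 dpp 6, D4 against 10.5 dpp 3, D30 against 36.5 dpp 8 and D4 against 6.5 dpp 4.

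Leaving out single libraries gave 2 to 3 for D4 against 10.5 dpp, 2 to 6 for D16 against 22.5 dpp, 7 to 8 for D30 against 36.5 dpp, 4 to 5 for D4 against 6.5 dpp, 1 to 2 for 22.5 against 10.5 dpp, 2 to 3 for 36.5 against 22.5 dpp, 0 to 1 and 5 to 6 for the growth to D16 and D30, and 0 to 0 for the other 3 comparisons.

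All 16 reversals came with somatic scaling: for D30 against 36.5 dpp Relb −0.18, Nfkbia −0.072, Tnfaip3 −0.33, Birc3 −0.22, Icam1 −0.22 and Nos2 −0.76; for 22.5 against 10.5 dpp Nfkb1 0.084 and Nfkbia 0.36; for 36.5 against 22.5 dpp Nfkb2 0.23, Relb 0.40 and Icam1 0.17; for the growth to D30 Nfkb2 −0.054, Relb −0.69, Nfkbia −0.47, Birc3 −0.53 and Icam1 −0.94. The cause was not tested. Of the other fold changes recomputed, 878 kept direction and side of the threshold and 58 kept direction only.

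Replicate numbers did not pair the libraries: deviations from stage means correlated with a median r of 0.0086 over 64 pairs of equal number and −0.0069 over 123 others. With the replicate number as a block, 2, 4, 8 and 5 members were called for D4 against 10.5 dpp, D16 against 22.5 dpp, D30 against 36.5 dpp and D4 against 6.5 dpp, 6 for the growth to D30, and all calls of the report stayed. With 3 counts or fewer of Ptgs2 in most testes, differences among testes were not detectable at this depth.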
